A study of Mus musculus with 16 samples.

Results

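Untreated 6DT1 cells carrying an empty lentiviral vector were compared with untreated 6DT1 cells carrying a lentivirus made to express CLIC4, as 8 of the 16 RNA-seq libraries of the series. The 8 were chosen by their titles: libraries 9, 10, 11 and 12 held the empty vector, and libraries 1 to 4 the CLIC4 lentivirus. 6DT1 is a mammary cancer cell line of mouse strain FVB/N1, as the labels write it. RNA was taken after 24 h in both the untreated cells and the other 8 libraries, which had the same 2 vectors and 1 µM hydrogen peroxide (H2O2). The labels conflict on genotype. Descriptions of single samples mark the empty-vector cells as knockout for CLIC4 and the lentivirus cells as wild type, but the text for the whole series names vectors alone. The labels do not say whether a clone or a pool of cells was used, what promoter drives CLIC4, or that the 4 libraries of a group were separate cultures, so p-values measure the spread between these libraries, which may be technical.

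Adhesion receptors such as cadherins and integrins fasten cells to each other and to the matrix, a mesh of collagens, glycoproteins and proteoglycans that proteases cut and remodel. Carriers and channels move nutrients, ions and metals across membranes, while ligands and their receptors carry signals to transcription factors that set which genes are read. In mammary epithelium, keratins and cell junctions hold the cells in layers, and growth factors of the EGF family drive ductal growth. CLIC4 belongs to the chloride intracellular channel family, whose members are found both in solution and in membranes.

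Total counts were between 47089156 and 57842587 in the 8 libraries. Levels are given as counts-per-million values scaled by the trimmed mean of M-values (TMM), written CPM. The scaling factor of library 11 was 0.721, while those of the other 7 were between 0.986 and 1.04. Over the tested genes, the log2 CPM of library 11 had a correlation of at most 0.926 with those of libraries 9, 10 and 12. The lowest value among those 3 was 0.998, and it was 0.998 within the lentivirus group too. Mitochondrial mRNA took 3.04% of the counts of library 11, 1.10% to 1.46% of those of libraries 9, 10 and 12, and 1.32% to 3.42% in the lentivirus group. Levels of library 11 are therefore given by themselves, and list counts and log2 changes of untreated cells with and without it.

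Clic4 was measured in every library first, as the gene that the vectors were made to change. Its level was 41.5, 41.2 and 44.7 CPM in empty-vector libraries 9, 10 and 12 and 138 CPM in library 11. In lentivirus libraries 1 to 4 it was 225, 244, 222 and 223 CPM. The groups did not overlap, although library 11 lay between the other empty-vector libraries and the lentivirus group. The log2 change, empty vector minus lentivirus, was -1.79 ± 0.31 (SE, 4 against 4 libraries; adjusted p = 2.88e-04) and -2.43 ± 0.05 without library 11 (adjusted p = 2.97e-18). Under H2O2, Clic4 stood at 45.1, 41.8, 43 and 39.5 CPM in the 4 empty-vector libraries and at 249, 258, 230.3 and 234 CPM in the 4 lentivirus libraries.

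A gene was called when edgeR's quasi-likelihood F test gave a Benjamini-Hochberg adjusted p under 0.05 over all genes tested. Among 14445 tested genes, 53.3% were called, with 4184 higher (29%) and 3516 lower (24.3%) with the empty vector. Changes of at least 2-fold made up 12.1% on the higher side and 9.81% on the lower, or 10.1% and 10.3% without library 11. Without library 11, 14602 genes could be tested, of which 37% were called higher and 37.3% lower. The gene-level spread, as biological coefficient of variation, was 23.1% with library 11 in the fit and 5.28% without it. Both fits called 4024 genes higher (27.9% of those tested) and 3487 lower (24.1%), and 8.79% were past 2-fold on the higher side in both, with 8.1% on the lower. Of the genes called in both fits, 16 were called in opposite directions. The median log2 change of all tested genes was 0.03 with library 11 and -0.02 without it.

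**Figure D1:**
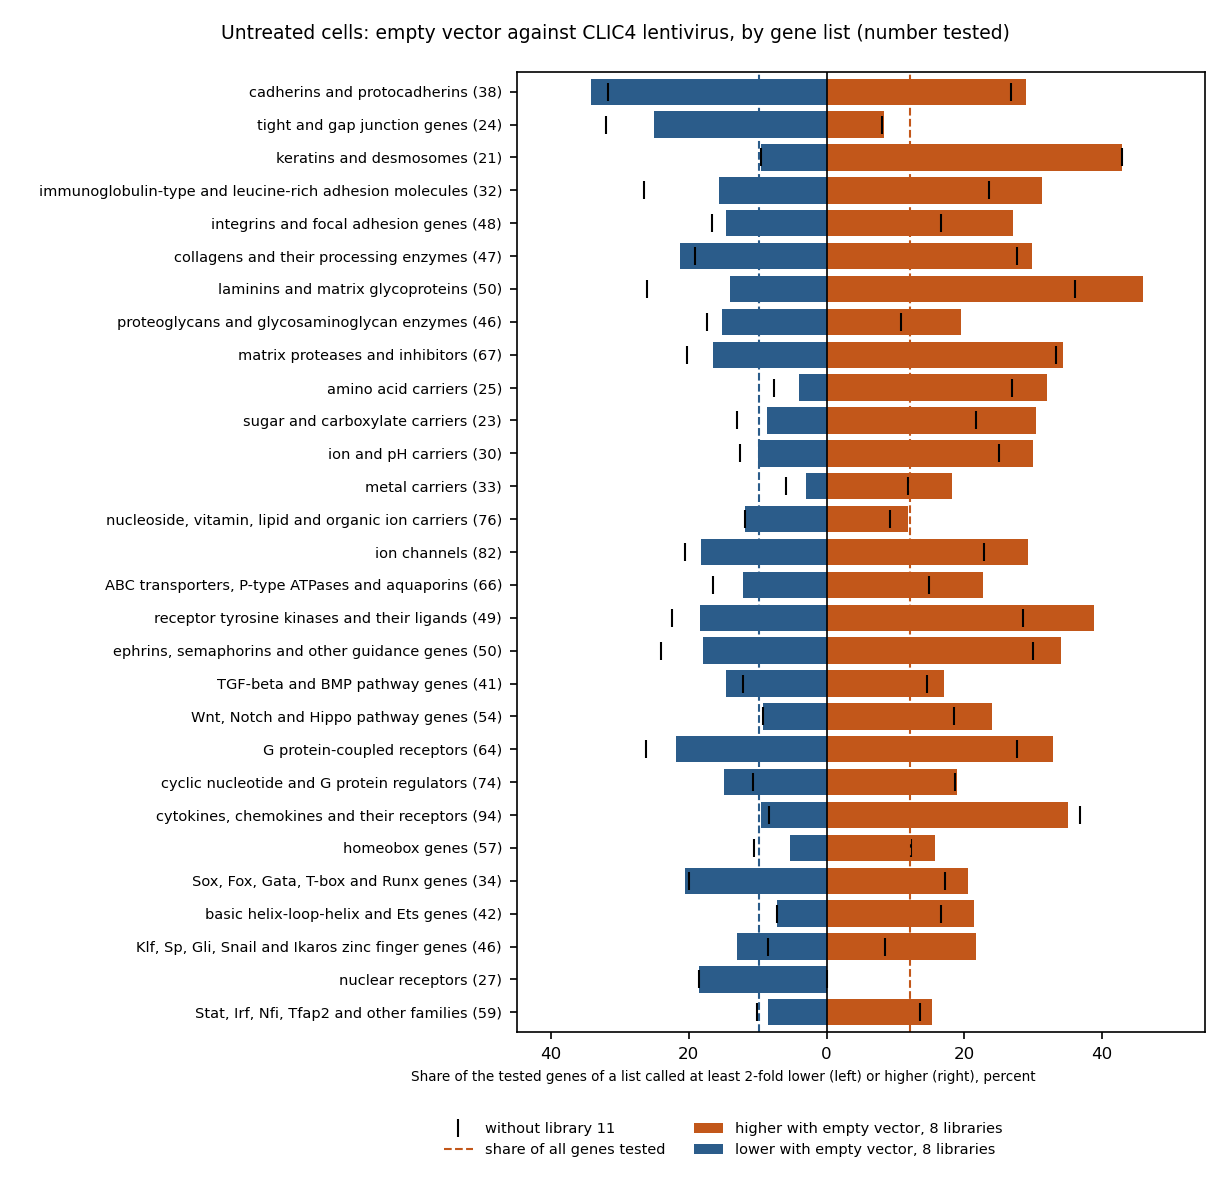
Share of the tested genes of each of the 29 lists called at least 2-fold lower (blue, left) or higher (orange, right) with the empty vector, in percent, from the 8 libraries. Black ticks give the shares without library 11 and dashed lines the shares of all tested genes (9.81% lower, 12.1% higher). Bars reach past the dashed lines on both sides for cadherins and for other lists, such as collagens and G protein-coupled receptors, while no nuclear receptor was called at least 2-fold higher.

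The lists cover 29 families in adhesion, matrix, transport, signalling and transcription control, and the plot of shares by list shows them side by side. They took in 2380 genes of the table, of which 1395 passed the filter on low counts, with 600 called higher and 323 lower. Over all tested genes, 29% were called higher and 24.3% lower, or 37% and 37.3% without library 11. The counts of each list below are to be read beside these shares. The genes named below are those that the naming rule took from each list, unless a sentence says otherwise. They had to be called at least 2-fold in the same direction with and without library 11, with groups that did not overlap, which was true of 49.6% of all tested genes for the last condition alone. Of the genes the rule gave, 50 that were higher and 43 that were lower with the empty vector are reported. Their values therefore describe genes chosen for their size. Where a pair of log2 changes stands in brackets after a gene, the first is from all 8 libraries and the second without library 11. A gene's RNA in these bulk libraries can be lower because fewer cells hold it or because each cell holds less, and the libraries cannot tell these apart.

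The cell type markers of the line were mixed. Luminal keratin genes were present, with Krt8 at 403 to 448 CPM in the lentivirus group and 599 to 632 CPM in libraries 9, 10 and 12. Library 11 held 371 CPM of Krt8, under every lentivirus library. Krt18 stood at 84.9 to 93.4 and 173 to 198 CPM, with 384 CPM in library 11. Epcam, a defining epithelial surface gene, reached at most 0.0357 CPM in the lentivirus group and had no count in libraries 9, 10 and 12, yet stood at 13 CPM in library 11. Cdh1, the E-cadherin of epithelial junctions, was at most 0.0862 CPM in the other 7 libraries and 1.53 CPM in library 11. Esrp1, an epithelial splicing factor, had no count in any of the 8 libraries.

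Mesenchymal Vim (vimentin) was high in all, at 2556 to 2604 CPM with the lentivirus and 3553 to 3745 CPM in libraries 9, 10 and 12. Its level in library 11 was 2688 CPM, nearer the lentivirus group. Over whole lists, the 11 luminal markers in the table summed to 591 to 643 CPM with the lentivirus, 967 to 1008 CPM in libraries 9, 10 and 12 and 1610.4 CPM in library 11. Outside library 11, nearly all of these sums was Krt8, Krt18 and Krt19. Of the 5 tested luminal markers, Krt8, Krt18, Krt19 and Elf3 were called higher in both fits. Gata3 was not called with library 11 (1.24) and was called lower without it (-0.12). Krt7 and Cldn4, too low to be tested, were higher with the lentivirus than in libraries 9, 10 and 12. The 8 immune markers summed to 77.6 to 82.9 CPM, 223 to 252 CPM and 385 CPM, in which Cd68, a lysosomal gene of macrophages, took 77.3 to 82.9 CPM, 218 to 247 CPM and 369 CPM. Itgam, the CD11b integrin chain of myeloid cells, was called higher (5.66 and 6.01), from 0.0172 to 0.215 CPM to 4.69 to 5.05 CPM and 0.907 CPM in library 11. Other defining immune genes were at or near 0: Ptprc and Tyrobp had no count in the empty-vector libraries, and Adgre1 and Cd3g none in any. Csf1r, a macrophage receptor gene, was at 14.5 CPM in library 11 and at or under 0.0353 CPM in the other 7. Sums of the 12 fibroblast markers were 2639 to 2686 CPM, 3675 to 3871 CPM and 2936 CPM, nearly all of it Vim. Of the 8 tested, 5 were called higher and 3 lower. Higher were Vim (0.41 and 0.51), Zeb1 (0.71 and 0.46), Pdgfra (1.89 and 1.90), Twist1 (2.42 and 1.57) and, at low levels, Col1a2 (2.33 and 1.68). Lower were Col1a1 (-1.35 and -1.63), Dcn (-4.20 and -4.11) and Lum, at 0.214 to 0.258 CPM with the lentivirus and no count with the empty vector. The 8 basal markers summed to 4.01 to 5.11 CPM with the lentivirus and 0.298 to 0.439 CPM in libraries 9, 10 and 12. In library 11 the sum was 2.51 CPM. Trp63, the 1 basal marker tested, was lower (-3.42 and -4.61), from 3.90 to 5.02 CPM to 0.149 to 0.220 CPM and 1.19 CPM in library 11. The 4 adipocyte markers summed to at most 0.388 CPM. The 7 endothelial markers summed to 84.1 to 89.0 CPM with the lentivirus, 6.55 to 7.60 CPM in libraries 9, 10 and 12 and 15.3 CPM in library 11. Cdh5, which was lower with the empty vector, held nearly all of the sum with the lentivirus. Vwf was lower as well (-1.30 and -1.42), Tie1 was higher (5.07 and 5.08), from 0.0177 to 0.086 CPM to 1.43 to 1.96 CPM, and Kdr and Tek were near 0. What part these other-cell markers have in the results was not tested.

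CpG-rich promoters were less frequent among the strongly changed genes than among all tested genes. RefSeq promoters (GRCm38.p6) were matched by symbol for 10203 tested genes and 67 of the 94 named genes, Clic4 included, and the 250 bases before the start were read, taking the first entry per symbol. A promoter counted as CpG-rich when its observed-to-expected CpG ratio was at least 0.6 and its GC content over 50%. That held for 62.2% of all matched genes and 65.5% of those called in neither fit. It held for 38.6% of genes at least 2-fold higher and 41.3% of genes at least 2-fold lower in both fits. Expression levels were not matched between these sets, and the shares carry no test.

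Each of 4 motifs, chosen with earlier results known, was searched on both strands. TGANTCA, with N for any base, is a loose form of the AP-1 site bound by Fos and Jun proteins, called the AP-1 letters below. It was in 4.6% of all matched promoters, 9.5% of those at least 2-fold higher and 5.2% of those at least 2-fold lower. TGACGTCA, the cAMP response element, was in 2.8%, 2.1% and 2.2%. CATTCC, the letters of the TEAD site of the Hippo pathway, was in 10.5%, 12.8% and 14.9%, and CACGTG, the E-box, in 8.5%, 5.0% and 7.6%. A match is a description of letters and no evidence of binding.

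The promoters of 5 genes are shown to let the matches be seen in context, and they were picked after the matches were known. They belong to 3 genes higher with the empty vector that hold the AP-1 letters (Serpinb7, P2rx7 and Krt13), to Adora1, which holds them and was lower, and to Areg, which holds the cAMP response element and was higher. Rgs17 (higher) and Zfhx2 (lower) were the other named genes with the AP-1 letters. In Krt13, Adora1 and Zfhx2 the match read TGAATCA. Each line gives 250 bases, 5′ to 3′ on the gene's strand, from RefSeq GRCm38.p6, with matches in capitals. Their positions are chr1:107422439-107422688 (plus strand), chr5:122643677-122643926 (plus), chr11:100121567-100121816 (minus), chr1:134235458-134235707 (minus) and chr5:91139349-91139598 (plus).
Serpinb7: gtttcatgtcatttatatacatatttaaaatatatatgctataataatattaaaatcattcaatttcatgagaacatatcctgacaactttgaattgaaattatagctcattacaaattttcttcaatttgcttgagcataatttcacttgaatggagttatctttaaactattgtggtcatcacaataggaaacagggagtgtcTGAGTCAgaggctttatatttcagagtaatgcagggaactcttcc
P2rx7: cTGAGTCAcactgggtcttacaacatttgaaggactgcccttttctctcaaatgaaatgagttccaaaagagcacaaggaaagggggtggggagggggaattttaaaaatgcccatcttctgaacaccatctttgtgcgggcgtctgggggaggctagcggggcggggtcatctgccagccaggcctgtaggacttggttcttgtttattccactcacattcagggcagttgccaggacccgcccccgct
Krt13: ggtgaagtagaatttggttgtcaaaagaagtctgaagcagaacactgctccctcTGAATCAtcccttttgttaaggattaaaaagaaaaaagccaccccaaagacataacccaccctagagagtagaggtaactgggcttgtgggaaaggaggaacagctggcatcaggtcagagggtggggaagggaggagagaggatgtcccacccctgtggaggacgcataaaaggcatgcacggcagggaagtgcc
Adora1: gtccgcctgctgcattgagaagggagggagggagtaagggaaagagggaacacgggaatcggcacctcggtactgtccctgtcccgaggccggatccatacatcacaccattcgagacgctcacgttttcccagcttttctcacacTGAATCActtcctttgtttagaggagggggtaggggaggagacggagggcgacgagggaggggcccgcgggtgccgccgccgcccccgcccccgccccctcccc
Areg: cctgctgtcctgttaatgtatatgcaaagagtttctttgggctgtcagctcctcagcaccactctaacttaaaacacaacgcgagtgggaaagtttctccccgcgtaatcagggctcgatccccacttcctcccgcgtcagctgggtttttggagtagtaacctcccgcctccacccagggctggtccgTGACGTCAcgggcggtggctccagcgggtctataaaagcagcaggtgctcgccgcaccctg

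Adhesion genes moved in both directions. Cadherins and protocadherins had 13 of 38 tested members called higher and 14 lower, with a median log2 change of -0.19 (15 and 16 of 41 without library 11). Cdh5, the VE-cadherin of endothelial junctions (chr8:104101625-104144511, mm10), fell. It was at 84.6, 79.3, 81.6 and 82.7 CPM in the lentivirus libraries, at 3.77, 3.96 and 3.11 CPM in libraries 9, 10 and 12 and at 4.25 CPM in library 11. Every empty-vector library, library 11 included, was far below the lentivirus group, with a log2 change of -4.44 ± 0.11 (adjusted p = 5.86e-13), or -4.50 ± 0.07 without library 11. Clstn3, a calsyntenin with cadherin repeats, rose from 0.893, 0.499, 0.619 and 0.732 CPM to 15.1, 17.2 and 15.9 CPM in libraries 9, 10 and 12 and 7.93 CPM in library 11. Fat2, a giant atypical cadherin, was higher (4.01 and 4.23).

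Tight and gap junction genes had 5 of 24 members called higher and 8 lower, and 12 of 25 in each direction without library 11. Cgn, which codes for cingulin on the inner face of tight junctions, was 102-fold lower, or 211-fold without library 11. Its level was 10, 10.5, 10.7 and 10.5 CPM with the lentivirus, 0.0706, 0.0338 and 0.0372 CPM in libraries 9, 10 and 12 and 0.311 CPM in library 11. The 5 members called higher, named here after their values were seen, were Mpp5 (0.76 and 0.40), Panx1 (0.86 and 1.04), Cgnl1 (1.71 and 0.86), Gjb5 (6.40 and 6.68) and Gja1 (0.75 and 0.94). Gjb5 had under 20 counts over the 4 lentivirus libraries, so counts near 0 limit the size of its rise.

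Keratin and desmosome genes were called in 14 higher and 4 lower of 21 tested members (15 and 5 without library 11), with a median log2 change of 0.74, or 0.54 without library 11. Evpl, the plakin envoplakin of the cornified envelope, rose from 2.41, 2.01, 1.8 and 2.37 CPM to 19.7, 20.8 and 19.7 CPM in libraries 9, 10 and 12, and was 5.62 CPM in library 11. Krt13, a keratin of stratified epithelia that showed AP-1 letters above, rose from 0.411, 0.172, 0.318 and 0.172 CPM to 3.21, 3.04 and 3.35 CPM and 10.4 CPM in library 11. Library 11 was thus lowest of its group for Evpl and highest for Krt13. Dsp, the desmoplakin that ties keratins to desmosomes, fell from 183, 229.5, 188 and 215 CPM to 51.3, 53.2 and 60.5 CPM, with 146 CPM in library 11, a log2 change of -1.39 ± 0.26 or -1.89 ± 0.10 without it. The other lower members, named after their values were seen, were Dsc3 (-3.54 and -4.56), Krt10 (-0.77 and -0.68) and Krt80 (-0.56 and -0.35). Dsc3 had under 20 counts over the 4 empty-vector libraries, so counts near 0 limit the size of its fall.

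Integrins and focal adhesion genes had 28 of 48 members called higher and 10 lower, with 13 and 7 past 2-fold. Without library 11 the counts were 30 and 13, of which 8 and 8 were past 2-fold, and 8 were at least 2-fold in both fits on the higher side. Itgb5, a beta subunit of a vitronectin receptor (chr16:33829665-33949338), was at 259, 261, 258 and 261 CPM with the lentivirus. It was at 10.2, 10.4 and 13.3 CPM in libraries 9, 10 and 12 and 11.2 CPM in library 11, so that all 4 empty-vector libraries lay within one narrow range. The change was 23.1-fold (log2 change -4.53 ± 0.13, adjusted p = 3.57e-12; -4.52 without library 11). Itgb7, a beta subunit of leukocyte homing integrins, rose from 132, 131, 120.2 and 134 CPM to 484, 490.1 and 489.7 CPM, with 382 CPM in library 11. Itgb4, the beta subunit of the hemidesmosome laminin receptor, rose from 0.141 to 0.302 CPM to 5.01 to 6.1 CPM, with 4.12 CPM in library 11. Itga7, a laminin receptor subunit of muscle, was lower (-1.64 and -1.58).

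Adhesion molecules of the immunoglobulin and leucine-rich repeat kind had 14 of 32 members called higher and 6 lower (15 and 12 without library 11). Slitrk5, a leucine-rich transmembrane protein of neurons, had the largest fall among the 93 genes that the naming rule took and are reported (-9.07 and -8.76). It stood at 90, 90.7, 92.3 and 87.7 CPM in the lentivirus libraries and 0.229, 0.22 and 0.167 CPM in libraries 9, 10 and 12. Library 11 had no count of it, which 3 counts of that library would put at under 0.0560 CPM before TMM scaling. Vcam1, a surface ligand of leukocyte integrins, rose from 7.44, 6.24, 8.38 and 7.95 CPM to 60.1, 59 and 55.3 CPM, with 32 CPM in library 11. The paired partners Nectin1 and Nectin3, which bind each other across cell contacts, moved apart: Nectin1 was higher (log2 change 2.17, 1.59 without library 11) and Nectin3 lower (-1.33 and -1.42).

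**Figure D2:**
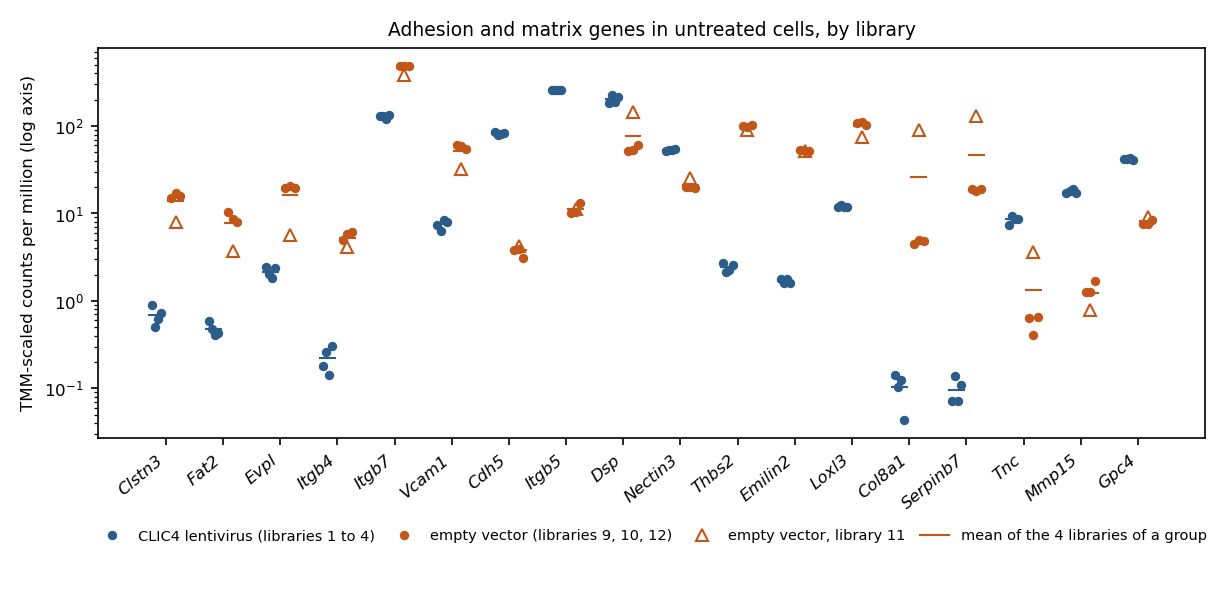
TMM-scaled CPM (log axis) of 18 named adhesion and matrix genes in each untreated library: CLIC4 lentivirus libraries 1 to 4 (blue dots), empty-vector libraries 9, 10 and 12 (orange dots) and library 11 (open triangles), with bars for the mean of 4 libraries. The 2 groups are apart for every gene shown because the naming rule required it. Library 11 lies well above the other empty-vector libraries for Col8a1 and Serpinb7.

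Among matrix genes, laminins and matrix glycoproteins had 27 of 50 members called higher and 10 lower, 23 and 7 of them past 2-fold (18 and 13 without library 11). The median log2 change was 0.98, and 0.38 without library 11, when 28 were higher and 16 lower. Thbs2, a thrombospondin that modulates contact between cells and matrix (chr17:14665500-14694235), was at 2.71, 2.13, 2.26 and 2.56 CPM with the lentivirus. Its level was 99.2, 97.1 and 103 CPM in libraries 9, 10 and 12 and 90.5 CPM in library 11, a 40.3-fold rise (41.4-fold without library 11) in which library 11 did not stand apart. Emilin2, a glycoprotein of elastic fibres, rose from 1.62 to 1.77 CPM to 51.2 to 52.9 CPM and 51.2 CPM in library 11, with a log2 change of 4.93 ± 0.07 (adjusted p = 2.19e-15; 4.94 without library 11). Tnc, the anti-adhesive glycoprotein tenascin C, fell from 7.46, 9.46, 8.74 and 8.7 CPM to 0.635, 0.406 and 0.651 CPM, and library 11 held 3.6 CPM, so that the log2 change was -2.74 with it and -3.93 without. Ccn4, a secreted matricellular protein, was also lower (-2.38 and -2.10).

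Collagens and their processing enzymes had 24 of 47 members called higher and 13 lower (27 and 13 without library 11). Loxl3, a lysyl oxidase that crosslinks collagen, rose from 12, 12.3, 11.8 and 11.8 CPM to 109, 112 and 104 CPM, with 74.2 CPM in library 11. Col8a1, a short-chain network collagen, was at 0.0431 to 0.143 CPM with the lentivirus, 4.52, 4.92 and 4.78 CPM in libraries 9, 10 and 12 and 89.3 CPM in library 11. Library 11 alone raised its log2 change from 5.46 ± 0.28 to 7.91 ± 1.19. P3h2, which hydroxylates prolines of collagen chains, fell from 30.5 to 33.3 CPM to 1.15 to 1.39 CPM, with 9.98 CPM in library 11. The transmembrane collagen gene Col23a1 was lower (-2.27 and -2.58).

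Proteoglycan and glycosaminoglycan genes were split, with 17 higher and 13 lower of 46 (20 and 18 without library 11). The shares were 37% and 28.3%, beside 29% and 24.3% of all tested genes. Without library 11 they were 43.5% and 39.1%, beside 37% and 37.3%. Gpc4, a glypican that carries heparan sulfate, fell from 41.8, 42.1, 42.8 and 41.3 CPM to 7.59, 7.67 and 8.31 CPM and 9.17 CPM in library 11. Hs6st1, which adds sulfate to heparan sulfate chains, was lower (-2.40 and -2.76). Higher members were the hyaluronidase gene Hyal1 (2.10 and 2.21) and the keratan sulfate sulfotransferase gene Chst1 (5.36 and 4.20).

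Matrix proteases and their inhibitors had 34 of 67 members called higher and 15 lower (37 and 22 without library 11), with a median log2 change of 0.66 (0.43 without library 11). Serpinb7, an intracellular serine protease inhibitor with the AP-1 letters in its promoter, was at 0.0714, 0.138, 0.0707 and 0.108 CPM with the lentivirus. It reached 19.2, 17.8 and 18.9 CPM in libraries 9, 10 and 12 and 131 CPM in library 11, and was 472-fold higher with library 11 and 189-fold without it. Adamtsl3, an ADAMTS-like protein with no protease domain, rose from 1.05 to 1.4 CPM to 35.8 to 36.8 CPM, with 25.7 CPM in library 11. A membrane-type metalloproteinase gene, Mmp15, fell from 17.2, 17.8, 18.9 and 17.1 CPM to 1.25, 1.27 and 1.67 CPM, with 0.778 CPM in library 11. Reck, a membrane-anchored inhibitor of such metalloproteinases, fell too (-2.20 and -2.05).

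Transport genes were called higher more often than lower in each of the 7 lists, with and without library 11 and with RLE scaling. Shares called higher were between 31.6% and 72%, against 29% of all tested genes, and shares called lower between 9.09% and 25.8%, against 24.3%. Without library 11 these were 47.8% to 80.8%, against 37%, and 15.4% to 37.3%, against 37.3%. Amino acid carriers had 18 of 25 called higher and 3 lower (21 and 4 without library 11), with a median log2 change of 0.75 and 0.60 without library 11. Slc7a11, the cystine carrier of the cystine and glutamate exchanger, rose from 1.45, 2.25, 1.87 and 2.05 CPM to 6.84, 6.34 and 9.99 CPM, with 3.94 CPM in library 11. Slc7a4, its relative, was higher (1.99 and 2.24). The 3 lower carriers, named after their values were seen, were Slc38a3 (0.619 to 0.991 CPM with the lentivirus, 0 to 0.0507 CPM in libraries 9, 10 and 12 and 0.259 CPM in library 11), Slc38a9 (-0.62 and -0.40) and Slc38a7 (-0.43 and -0.36).

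Slc2a3, the high-affinity glucose carrier GLUT3 (chr6:122727809-122801640), was higher with the empty vector. Lentivirus libraries held 0.571, 0.292, 0.495 and 0.474 CPM, libraries 9, 10 and 12 held 125, 124 and 127 CPM and library 11 held 96.7 CPM, a 257-fold difference (log2 change 8.01 ± 0.17, adjusted p = 1.56e-13; 8.10 without library 11). Its list, sugar and carboxylate carriers, had 9 of 23 members called higher and 3 lower, which became 11 and 8 without library 11. Slc37a1, a sugar phosphate exchanger, was higher (1.47 and 1.65). Slc2a10, another glucose carrier of the same family as Slc2a3, was lower (-3.71 and -3.34), and Slc16a6 (-1.50 and -1.22) and Slc16a10 (-0.43 and -0.25), named after their values were seen, were the other lower members.

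Ion pumps and channels followed. Among ABC transporters, P-type ATPases and aquaporins, 30 of 66 were called higher and 17 lower (33 and 25 without library 11). Atp13a4, a P-type ATPase, was higher (3.29 and 3.17), while the flippase-type genes Atp8b3 (-1.77 and -1.56) and Atp10d (-1.49 and -1.92) were lower.

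Among 82 ion channel genes, 40 were called higher and 18 lower (47 and 25 without library 11). P2rx7, the ATP-gated cation channel, rose from 0.643, 0.516, 0.796 and 0.582 CPM to 28.6, 28.7 and 31.1 CPM and 10.9 CPM in library 11. Trpm6, a magnesium channel with its own kinase domain, rose from 0.258 to 0.495 CPM to 12 to 13.4 CPM, with 2.95 CPM in library 11. Both were thus lower in library 11 than in libraries 9, 10 and 12, yet above every lentivirus library. Kcnt1, a sodium-activated potassium channel, fell from 153, 154, 201 and 152 CPM to 7.6, 8.48 and 10.6 CPM, with 4.2 CPM in library 11. Kcnh2, the potassium channel known from heart as hERG, was lower (-1.64 and -1.43).

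Ion and pH carriers had 17 of 30 members called higher and 6 lower (18 and 9 without library 11). Slc12a2, which brings sodium, potassium and chloride into the cell, fell from 124, 137, 135 and 134 CPM to 46.8, 42.9 and 41.9 CPM, with 72.3 CPM in library 11. The bicarbonate carrier family rose in its 2 named members, Slc4a8 (3.63 and 3.17) and Slc4a11 (5.33 and 3.68). Library 11 held 26.6 CPM of Slc4a11, while libraries 9, 10 and 12 held 2.59 to 3.12 CPM.

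Metal carriers had 17 of 33 members called higher and 3 lower (23 and 6 without library 11). Steap1, of the metalloreductase family, was higher (2.29 and 2.15), as was Slc30a2, which loads zinc into vesicles and supplies it to milk (1.72 and 1.98). The lower members, named after their values were seen, were the iron exporter gene Slc40a1 (-9.63 and -9.33), Cnnm3 (-0.83 and -0.60) and Slc39a3 (-0.82 and -0.54). Slc40a1 had under 20 counts over the 4 empty-vector libraries, so counts near 0 limit the size of its fall.

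In the list of nucleoside, vitamin, lipid and organic ion carriers, 24 of 76 were called higher and 18 lower (37 and 24 without library 11). Its shares with library 11, 31.6% and 23.7%, were near the 29% and 24.3% of all tested genes. They were 48.7% and 31.6% without library 11, beside 37% and 37.3%. Slc15a2, a carrier of short peptides, fell from 88.6, 93.2, 115 and 89.9 CPM to 17.8, 17.9 and 18.2 CPM, with 22.7 CPM in library 11. Slco4a1, an organic anion carrier, was at 3.04, 2.8, 3.11 and 3.14 CPM with the lentivirus, at 10.4, 9.26 and 8.41 CPM in libraries 9, 10 and 12 and at 533 CPM in library 11. Its log2 change was 5.53 ± 1.23 with library 11 and 1.63 ± 0.10 without it, so that most of the size came from that 1 library. Slc35b1, a nucleotide carrier of the endoplasmic reticulum, was higher (1.45 and 1.11), and the choline carrier-like Slc44a3 lower (-2.62 and -2.36).

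**Figure D3:**
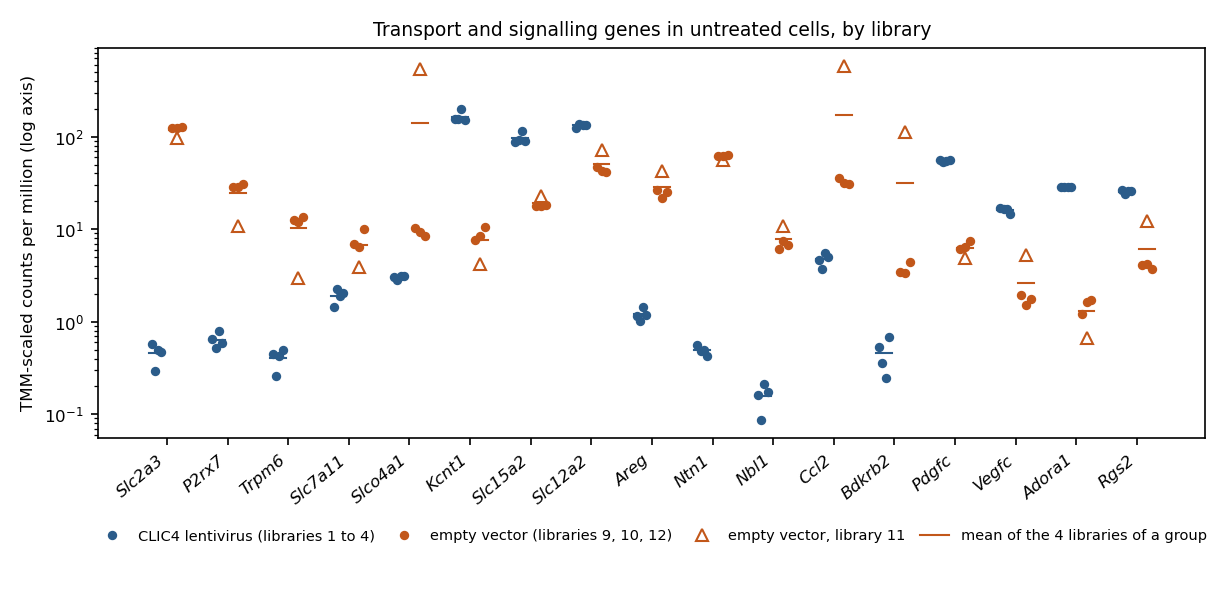
TMM-scaled CPM (log axis) of 17 named transport and signalling genes in each untreated library, drawn as in the plot of adhesion and matrix genes. Library 11 is near the other empty-vector libraries for Ntn1 and far above them for Slco4a1, Ccl2 and Bdkrb2.

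Among signalling genes, the named growth factors were higher in some cases and lower in others, since the naming rule took genes of each direction. Receptor tyrosine kinases and their ligands had 25 of 49 members called higher and 12 lower, 19 and 9 past 2-fold. Without library 11 the counts were 26 and 16, with 14 and 11 past 2-fold. Areg, the EGF receptor ligand amphiregulin that drives mammary duct growth (chr5:91139599-91148432), rose from 1.16, 1.01, 1.45 and 1.18 CPM to 26.3, 21.6 and 25.4 CPM, with 42.3 CPM in library 11. Its log2 change was 4.58 ± 0.23 (adjusted p = 1.38e-09), or 4.34 without library 11. Mst1, a secreted ligand of a Met-family receptor, was higher as well (3.18 and 3.35). Pdgfc, a platelet-derived growth factor, fell from 55.7, 52.6, 55.2 and 55.4 CPM to 6.14, 6.36 and 7.51 CPM, with 4.9 CPM in library 11, and Vegfc, the lymphatic vessel growth factor, from 14.5 to 17 CPM to 1.52 to 1.94 CPM, with 5.29 CPM in library 11.

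Guidance genes, first described in growing axons, had 24 of 50 members called higher and 12 lower (23 and 18 without library 11). Ntn1, the secreted cue netrin 1 (chr11:68209364-68400823), was at 0.553, 0.481, 0.495 and 0.431 CPM in the lentivirus libraries, 61.4, 61.1 and 63.6 CPM in libraries 9, 10 and 12 and 56.3 CPM in library 11. That is a 123-fold rise (log2 change 6.94 ± 0.19, adjusted p = 2.47e-12; 6.97 without library 11). Of the named semaphorin genes, Sema4f was higher (5.33 and 5.63) and Sema6a lower (-4.20 and -4.18), picks that the rule takes from each direction. Plxnb1, a plexin receptor of semaphorins, fell from 5.03 to 6.64 CPM to 0.0169 to 0.0744 CPM, with 0.441 CPM in library 11.

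TGF-beta and BMP pathway genes had 12 of 41 members called higher and 11 lower, and 13 and 19 without library 11. With library 11 the shares, 29.3% and 26.8%, were near the 29% and 24.3% of all tested genes. They were 31.7% and 46.3% without it, beside 37% and 37.3%. Nbl1, a secreted antagonist of BMP ligands, rose from 0.161, 0.086, 0.212 and 0.172 CPM to 6.07, 7.54 and 6.7 CPM, with 10.9 CPM in library 11. Ligand genes, set together after their values were seen, went both ways. Lower were Inhbb, an activin and inhibin beta chain (-5.28 and -5.03), Tgfb2 (-1.27 and -1.68), Gdf11 (-1.12 and -1.54) and, at low levels, Bmp4 (0.442 to 0.571 CPM with the lentivirus and at most 0.0518 CPM with the empty vector). Higher were Tgfb1 (0.38 and 0.43), Bmp7, from at most 0.0357 CPM to 0.141 to 0.335 CPM in libraries 9, 10 and 12, and Gdf15, which had no count with the lentivirus, 3.58, 3.52 and 4.72 CPM in libraries 9, 10 and 12 and 23.6 CPM in library 11. Wnt, Notch and Hippo pathway genes had 21 of 54 called higher and 8 lower (22 and 19 without library 11). Of 2 Wnt receptor genes, Fzd7 was higher (1.70 and 1.43) and Fzd8 lower (-2.67 and -2.43). Dll4, a Notch ligand, was higher (4.30 and 2.91), and Tead2, a Hippo pathway transcription factor, lower (-1.57 and -1.45).

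G protein-coupled receptors had 30 of 64 members called higher and 20 lower (32 and 27 without library 11). Adora1, an adenosine receptor that lowers cyclic AMP, fell from 28.4, 28.9, 28.4 and 28.7 CPM to 1.2, 1.62 and 1.71 CPM, with 0.674 CPM in library 11, and is the gene whose promoter above held the AP-1 letters without a rise. The orphan receptor Gprc5c was lower (-4.50 and -4.13). Bdkrb2, a bradykinin receptor, was at 0.248 to 0.689 CPM with the lentivirus, 3.48, 3.38 and 4.39 CPM in libraries 9, 10 and 12 and 114 CPM in library 11, which moved its log2 change from 3.05 to 6.09.

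Regulators of cyclic nucleotides and G proteins had 30 of 74 members called higher and 14 lower (38 and 20 without library 11). Npr1, a natriuretic peptide receptor that makes cyclic GMP, rose (3.87 and 3.77), and of the RGS genes that shut off G proteins, Rgs17 was higher (2.97 and 2.82). Rgs2 fell from 26.4, 23.8, 25.6 and 25.6 CPM to 4.06, 4.24 and 3.72 CPM, with 12.3 CPM in library 11, and Rgs11 was lower too (-1.52 and -1.23).

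Cytokines, chemokines and their receptors had 44 of 94 members called higher and 17 lower, 33 and 9 past 2-fold. They were 53 and 24, and 35 and 8 past 2-fold, without library 11. Ccl2, a chemokine that draws monocytes, rose from 4.61, 3.68, 5.59 and 5.02 CPM to 36, 31.9 and 30.8 CPM in libraries 9, 10 and 12, and to 585 CPM in library 11. Its log2 change was 5.18 ± 0.91, and 2.80 ± 0.18 without library 11. The neighbouring Ccl7 held 1.94, 2.28 and 1.49 CPM and, in library 11, 134 CPM, against at most 0.138 CPM with the lentivirus, with log2 changes of 8.55 and 4.35. The growth hormone receptor gene Ghr (-1.77 and -1.59) and Socs2, a feedback inhibitor of that receptor (-1.60 and -1.92), were both lower.

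In the 6 transcription factor lists, between 47.5% and 70.6% of the tested members were called, beside 53.3% of all tested genes, and between 73.7% and 88.6%, beside 74.4%, without library 11. Mef2c, a MADS-box factor of muscle and neurons (chr13:83504034-83667080), fell from 76, 81.7, 74.4 and 75.9 CPM to 2.68, 2.89 and 2.88 CPM in libraries 9, 10 and 12 and 0.855 CPM in library 11. The log2 change was -5.03 ± 0.28 (adjusted p = 3.78e-09), or -4.77 ± 0.07 without library 11. Its list also held the interferon factors, and 20 of 59 members were called higher and 8 lower (30 and 17 without library 11). Irf8, an interferon factor of myeloid cells, rose from 5.43, 6.1, 4.69 and 6.12 CPM to 38.8, 37.7 and 33.5 CPM and 35 CPM in library 11. Irf7, which drives interferon genes, rose from 11.6, 10.1, 9.65 and 11.5 CPM to 58.6, 44.6 and 52.1 CPM, while library 11 held 12.6 CPM and so lay just above the lentivirus group.

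Ets and basic helix-loop-helix genes had 14 of 42 members called higher and 9 lower (20 and 14 without library 11). Etv4, an Ets factor of the PEA3 group downstream of growth factor signals (chr11:101769742-101785371), rose from 15.2, 11.5, 12.3 and 14.2 CPM to 107, 111 and 100.5 CPM, with 372 CPM in library 11. It was 13-fold higher with library 11 and 8.01-fold higher without it. Elf3, an Ets factor of epithelia, rose from 0.653 to 0.928 CPM to 4.96 to 5.6 CPM, and library 11 held 44.2 CPM. Scx, the tendon factor scleraxis, was lower (-1.61 and -1.45).

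Sox, Fox, Gata, T-box and Runx genes had 13 of 34 members called higher and 11 lower (14 and 17 without library 11). Gata2, a factor of blood progenitors, rose from 16.1, 14.4, 16.7 and 16.8 CPM to 58.5, 61.1 and 54.7 CPM, with 147 CPM in library 11. Foxm1, a factor of dividing cells, rose from 29 to 30.3 CPM to 72.6 to 85.7 CPM, with 53 CPM in library 11. Sox4 fell from 20.5 to 22.5 CPM to 4.89 to 5.54 CPM, with 9.2 CPM in library 11.

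Homeobox genes had 15 of 57 members called higher and 14 lower (17 and 25 without library 11). The shares with library 11, 26.3% and 24.6%, were near the 29% and 24.3% of all tested genes. They were 29.8% and 43.9% without library 11, beside 37% and 37.3%. Pax5, the factor of B cell identity, rose from 3.46, 3.71, 3.24 and 3.42 CPM to 22.2, 20.1 and 19.7 CPM, with 5.75 CPM in library 11. Pbx3, a partner of Hox proteins, was higher (1.01 and 1.06), and Hlx lower (-2.73 and -2.70). Zfhx2 was at 8.55 CPM in library 11, close to the 9.57 to 10.8 CPM of the lentivirus group, and at 1.75, 1.66 and 2.1 CPM in libraries 9, 10 and 12. Klf, Sp, Gli, Snail and Ikaros genes had 18 of 46 members called higher and 14 lower (17 and 19 without library 11). Casz1, a zinc finger factor of heart development, was higher (2.94 and 1.20) and Prdm11 lower (-1.64 and -1.32).

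Nuclear receptors were the list with the most calls on the lower side relative to the higher, with 13 of 27 members called lower and 3 higher, and a median log2 change of -0.36 (-0.18 without library 11, with 15 and 5). Of the members at least 2-fold lower, 4 were at low levels and are named after their values were seen. Thrb, a thyroid hormone receptor gene, was at 1.46 to 1.52 CPM with the lentivirus and had counts in 1 of the 4 empty-vector libraries, at 0.0558 CPM. Esr1, the oestrogen receptor gene, was at 2.65 to 3.06 CPM with the lentivirus, 0.194 to 0.391 CPM in libraries 9, 10 and 12 and 0.181 CPM in library 11. Nr0b2 and Nr1i3 were at most 0.302 and 0.292 CPM in any library. The 3 higher members were Ppard (0.81 and 0.82), the vitamin D receptor gene Vdr (0.81 and 0.53) and Nr1h2 (0.34 and 0.18).

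**Figure D4:**
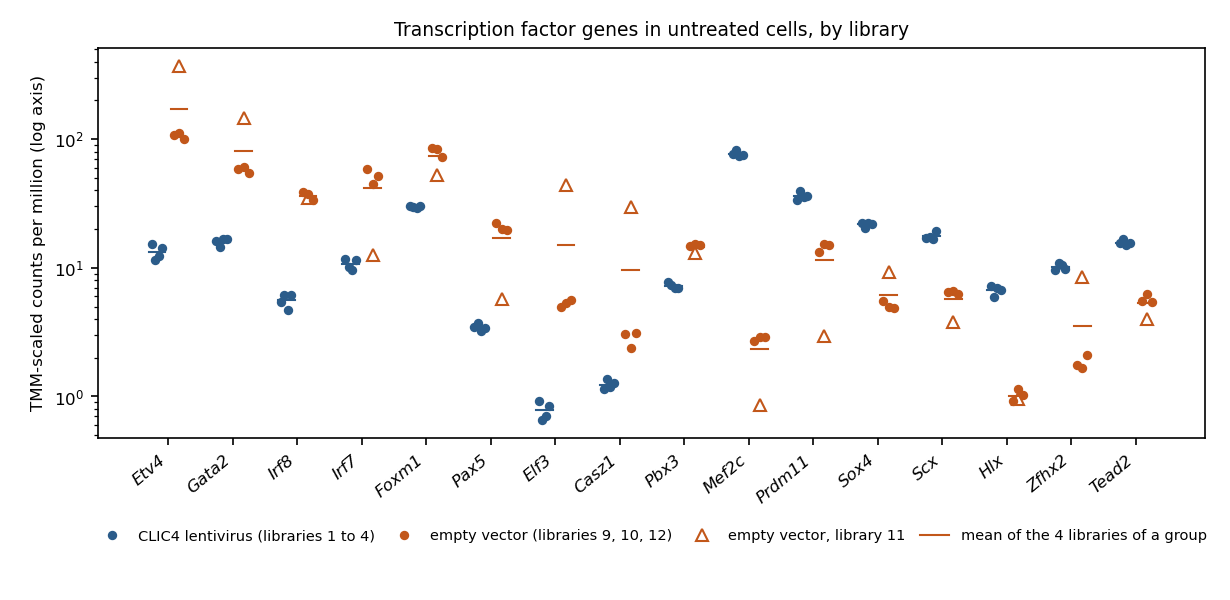
TMM-scaled CPM (log axis) of 16 named transcription factor genes in each untreated library, drawn as in the plot of adhesion and matrix genes. Groups are apart for every gene shown because the naming rule required it, and library 11 comes near the lentivirus group for Irf7 and Zfhx2.

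The same vector contrast was measured in 8 other libraries, treated with H2O2. Their counts set none of the untreated levels, but all 16 libraries share 1 fit and its estimate of the spread, so the tests of the contrasts are not independent. Among the 93 named genes, 89 were called in the same direction in the treated libraries by edgeR with all 16 libraries in the fit, and 93 without library 11. Calls in the treated contrast were made for 42.1% of all genes tested (73.8% without library 11), and for 96.8% in the same direction among the 847 genes that met the conditions of the naming rule, in a list or not. The 4 that were not called with library 11 were Slco4a1, Bdkrb2, Casz1 and Rgs11. In treated cells, Slitrk5 had a log2 change of -9.18, Slc2a3 of 8.49, Ntn1 of 6.54, Cdh5 of -4.54, Itgb5 of -4.59 and Mef2c of -4.80. Slco4a1 was at 9.11, 8.94, 10.3 and 11.6 CPM in the 4 treated empty-vector libraries, none of them near the level of library 11.

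The difference between the untreated and the treated vector contrast was tested directly as an interaction. It was called by edgeR for 0% of all genes with library 11, where 859 had an unadjusted p under 0.05, and for 0.192% without it. None of the 93 named genes was called in either fit, with smallest adjusted p of 0.658 and 0.0948, while 12 had an unadjusted p under 0.05 with library 11. Rgs11 had a log2 change of -1.52 in untreated cells and -0.43 in treated cells, a difference that did not pass this test.

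**Figure D5:**
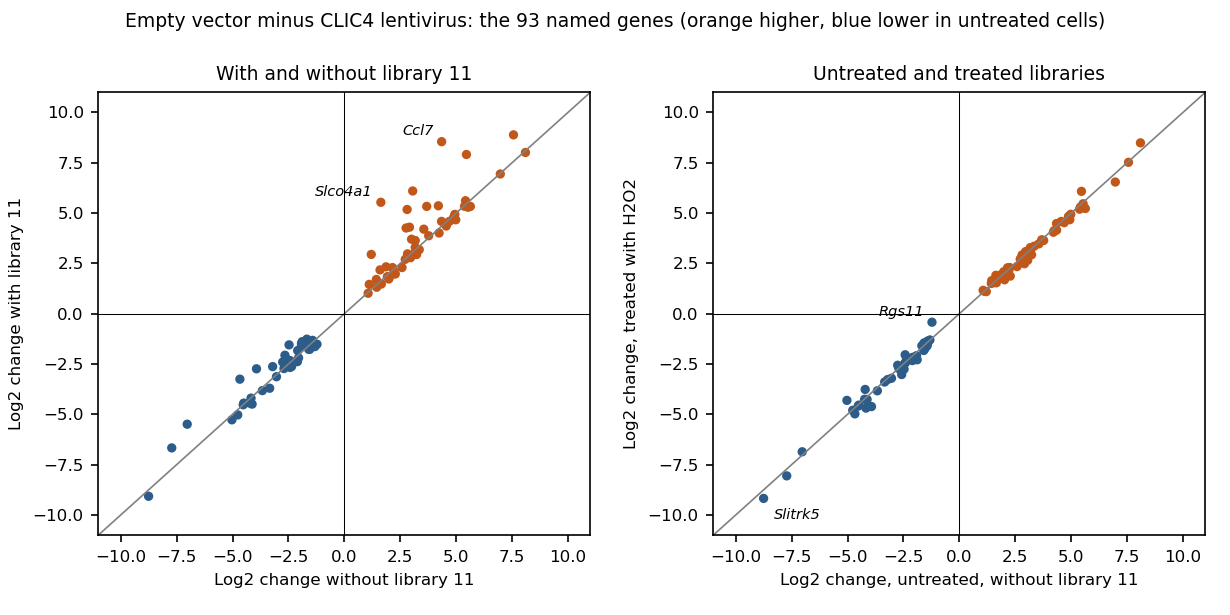
Log2 changes (empty vector minus CLIC4 lentivirus) of the 93 named genes. Left: values with library 11 against values without it. Right: values in libraries treated with H2O2 against untreated values without library 11. The grey line marks equal values; Slco4a1 and Ccl7 lie far above it on the left, and Rgs11 is nearer 0 in treated cells.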

How the data were processed

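The series holds 16 RNA-seq libraries from 6DT1 cells. Reads were processed with cutadapt, STAR and RSEM on mm10, per the submitters' processing notes; tool versions, the annotation and the strand setting were not given in the sources used here. Whole-number counts for 25745 genes make up the authors' deposited count table, possibly rounded from RSEM's expected counts. The authors' deposited FPKM table, scaled to gene length and depth, holds 25372 genes and was used as an alternative. With the strand setting unknown, reads of a gene and of an antisense or overlapping neighbour may be mixed, as may those of near-identical copies.

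Groups came from the sample titles. Members, gene lists, motifs and windows were chosen with earlier results of these data known. The main test was edgeR (version 4.0.16, under R 4.3.3), its quasi-likelihood F test, with TMM scaling, filterByExpr and a robust fit. All 16 libraries and 4 groups entered 1 fit and share an estimate of the spread. Benjamini-Hochberg adjustment ran over all genes tested, and each SE is the size of the log2 change over the root of its F value. No pair of libraries within a group agreed within sampling noise (lowest chi-square per degree of freedom 8.12). Alternatives were leaving out each of the 8 libraries, RLE scaling, DESeq2 1.42.0, other filters, the untreated libraries alone, and limma 3.58.1 on log2(FPKM + 1) and log2(FPKM + 0.1), a scale that understates the change of low genes. List counts under RLE scaling were added after the data were seen. The tests were checked on simulated counts that held no library like library 11.

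The naming rule took Clic4 and, from each list, up to 2 higher and 2 lower genes by the smaller of their log2 changes with and without library 11. They had to be called in the same direction and at least 2-fold in both fits. They also needed at least 20 counts in each group, groups that do not overlap, at least 5 CPM in the higher group and a regular symbol. Some genes and 1 list that the rule took are not reported here. Gene positions are from GENCODE vM21 (mm10) by symbol. Limits from counts cover counting error only, since reads carry no molecular identifiers. Figures were drawn with matplotlib 3.10.9.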

Additional observations from a re-analysis of the deposited data

Results flagged for a closer look

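In each group of 4 libraries, the gap between the most distant library and its nearest neighbour was divided by the range of the group, in CPM, and 51 of the 188 groups (94 genes in 2 groups) had a ratio above Dixon's 95% critical value for 4 samples. About 1 group in 20 would be so marked by chance. Library 11 was the distant library in 44 of the 51, as the highest of the empty-vector libraries in 34 and the lowest in 10.

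With library 11 highest, the ratios (gap over range, in brackets) were, beginning with the vector gene and adhesion genes, Clic4 (0.964), Cgn (0.867), Krt13 (0.959), Dsp (0.903), Nectin1 (0.959) and Nectin3 (0.916). Matrix genes of this kind were Col8a1 (0.995), P3h2 (0.974), Tnc (0.923), Chst1 (0.983), Hs6st1 (0.863) and Serpinb7 (0.988). Among transport genes they were Slc4a11 (0.978), Slc4a8 (0.916), Slc12a2 (0.841), Steap1 (0.845), Slco4a1 (0.996) and Slc15a2 (0.909). Signalling genes added Vegfc (0.889), Plxnb1 (0.864), Tgfb2 (0.897), Dll4 (0.987), Bdkrb2 (0.991), Rgs17 (0.852), Rgs2 (0.939), Ccl7 (0.994), Ccl2 (0.991) and Socs2 (0.899). Transcription factor genes with the same position of library 11 were Zfhx2 (0.935), Gata2 (0.931), Sox4 (0.85), Etv4 (0.96), Elf3 (0.984) and Casz1 (0.973).

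Library 11 was lowest for Evpl (0.926), Itgb7 (0.944) and Adamtsl3 (0.908) among adhesion and matrix genes. The same held for Slc2a3 (0.896), P2rx7 (0.876) and Trpm6 (0.865) in transport, and for Pax5 (0.849), Scx (0.881), Prdm11 (0.83) and Mef2c (0.897) among transcription factors.

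In the lentivirus group, library 2 was the distant one for Clic4 (0.876), Pdgfc (0.85) and Inhbb (0.907), library 3 for Kcnt1 (0.957) and Rgs11 (0.873) and library 1 for Chst1 (0.862) and Slc44a3 (0.838). For Clic4 both groups were marked, with library 11 highest among empty-vector libraries and library 2 highest among lentivirus libraries.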

How the results depend on the processing

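No paired analysis was possible because the groups share no library number. Leaving out 1 untreated library at a time gave 3662 to 5409 genes called higher, 3041 to 5449 lower, 1472 to 1965 at least 2-fold higher and 1358 to 1558 at least 2-fold lower, against 4184, 3516, 1741 and 1417 with all 8. Without library 11 both counts of all calls were the largest, while the count at least 2-fold higher was the smallest. A filter of 10 CPM in 4 libraries gave 2777, 2330, 777 and 391, with 9558 genes tested. The untreated libraries alone gave 2430 higher and 1996 lower. For changes of at least 2-fold, limma on log2(FPKM + 1) gave 620 and 540, without a filter 609 and 526, and 972 higher on log2(FPKM + 0.1), scales that shrink low genes. Without library 11 the treated contrast had 5347 and 5432 calls, against 3189 and 2890, and the difference between the contrasts 18 and 10 in place of 0. Calls were higher in 54.3% with library 11 and 49.8% without it.

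Clic4 kept its direction and call in every alternative run, between -2.43 and -1.62 on the log2 scale. Among the other named genes no alternative reversed a direction, and 3 calls were lost: Zfhx2 (adjusted p = 0.0714) with the untreated libraries alone in edgeR, and Slco4a1 (0.0626) and Casz1 (0.0598) with limma on log2(FPKM + 1) without a filter. Apart from library 11, no single library moved a named gene's fold by over 1.5 times. Over all tested genes, leaving out library 11 took lower calls from 24.3% to 37.3% and higher calls from 29% to 37%. The list counts given next are those that moved by over 1.5 times, and they are to be read beside this general gain. Without library 11, members called lower went from 6 to 12 for immunoglobulin-type and leucine-rich adhesion molecules, from 10 to 16 for laminins and matrix glycoproteins, from 3 to 8 for sugar and carboxylate carriers, from 3 to 6 for metal carriers, from 11 to 19 for TGF-beta and BMP pathway genes, from 8 to 19 for Wnt, Notch and Hippo pathway genes, from 14 to 25 for homeobox genes, from 11 to 17 for Sox, Fox, Gata, T-box and Runx genes, from 9 to 14 for basic helix-loop-helix and Ets genes, from 8 to 17 for Stat, Irf, Nfi, Tfap2 and other families and from 0 to 1 for luminal epithelial markers. Members called higher went from 5 to 12 for tight and gap junction genes, from 24 to 37 for nucleoside, vitamin, lipid and organic ion carriers and from 3 to 5 for nuclear receptors. RLE scaling kept every list count within 1.5 times. Chromosome medians that moved by more than their spread over libraries were, without library 11, -0.0451 (chromosome 3), -0.0142 (chromosome 5), -0.0495 (chromosome 7), -0.00655 (chromosome 8), -0.0332 (chromosome 9), 0.0225 (chromosome 10), 0.00900 (chromosome 11), 0.0161 (chromosome 15), -0.0239 (chromosome 17), -0.0400 (chromosome 18) and 0.0535 (chromosome 19). The cause of these differences was not tested. Counts near 0 limit the folds of genes silent in 1 group.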

Other observations

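Genes of chromosome 13 were lower with the empty vector more often than higher. Among its 584 tested genes 117 were called higher and 203 lower, with a median log2 change of -0.15, or -0.16 without library 11. Medians of the other autosomes lay between -0.03 and 0.10 with library 11. Windows of 10 Mb were read after these medians were seen, in 226 windows with at least 20 tested genes, and the values are given with no test. Their medians without library 11 had a 10th percentile of -0.18 and a 90th of 0.11.

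The window of chromosome 13 from 60 to 70 Mb had a median of -0.65 without library 11 and -0.72 with it, and 60 of its 86 genes were called lower without library 11. In the treated libraries its median was -0.58. This window holds 28 zinc finger genes with Zfp-type symbols, a family with many similar copies that may share reads, and its other 58 genes had a median of -0.38. The adjoining window from 70 to 80 Mb (49 genes) had a median of -0.39 without library 11 and -0.47 with it, and -0.31 in treated libraries, and the window from 20 to 30 Mb (41 genes) had -0.59 without library 11 and -0.25 with it, and -0.32 in treated libraries. On chromosome 1 the window from 20 to 30 Mb had -0.71 in untreated libraries without library 11, with 9 of its 20 genes called lower and 4 higher. The median was -0.31 with library 11 and -0.05 in treated libraries. The highest median of the 226 windows was 0.51 (0.61 with library 11), on chromosome X from 140 to 150 Mb.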
